A study of Bos taurus with 42 samples.

Results

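The libraries described here are those of in vitro fertilised (IVF) bovine embryos at the 8-cell stage (replicates 2, 3 and 4, collected on day 3) and at the 2-cell stage (replicates 1, 2, 3 and 4, collected on day 2), which make up 7 of the 42 libraries in the table. They were chosen by their labels, and all 12345 annotations of the table were used. Per the labels, each library came from a pool of 20 embryos, so the spread between libraries is a spread between pools and no single embryo can be seen. Both groups came from oocytes matured and fertilised in the laboratory with semen of 1 Holstein bull, and both were grown on a layer of bovine cumulus cells in synthetic oviductal fluid with serum. RNA under 200 nt was sequenced on the Ion Proton. The other libraries are oocytes, cloned embryos made by somatic cell nuclear transfer (scNT), later IVF stages and cultured cells, and they are used only where named.

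Cattle embryos live at first on RNA stored in the oocyte, and their own genome takes over transcription around the 8-cell stage. PIWI-interacting RNAs (piRNAs), cut from long clustered precursors, guard the germ line and early embryo against transposons. MicroRNAs (miRNAs) guide silencing of messenger RNAs. Fragments of transfer RNAs arise in several ways: tiRNAs are the pieces left when the anticodon loop is cut, shorter pieces come from either end of the mature tRNA, CCA pieces carry its added 3′ tail, and tRF-1 and leader pieces come from the ends trimmed off the precursor.

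Each row of the table is an annotation, such as the name of a miRNA, a kind of fragment of named tRNA genes, or a piRNA cluster. Values are given as normalised reads, recovered from the deposited log2 values and scaled by the authors' size factors. Listed reads were 496827, 1134740 and 1433572 in the 8-cell libraries and 523545, 457411, 438446 and 381043 in the 2-cell libraries. Where an annotation was listed at 0, an expected level of 3 reads was taken as the limit. This is 6.76, 3.56 and 1.58 normalised reads in the 8-cell libraries and 15.7, 11.3, 4.39 and 14.6 in the 2-cell libraries. The smallest listed value was taken as 2 reads, so a listed 0 can hide a single read, and the limit is then too low. This limit covers counting error only, and low levels were seen less well at the 2-cell stage. All 12345 annotations were found in 1 cloned 2-cell library, so that RNAs absent from that library are not listed.

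A single library stood apart. The 2-cell replicate 3 had a mean correlation of 0.81 with the 8-cell libraries and of 0.736 with the other 2-cell libraries, on log2(normalised reads + 1) over all annotations. The other 2-cell libraries also correlated more with the 8-cell libraries (0.738 to 0.762) than with their own group (0.723 to 0.737), but by less. The 2-cell replicate 3 had 641362 listed normalised reads in all, against 1728527 to 2732717 in the other 2-cell libraries. It also held 17792 normalised reads of miR-21, against 1086 to 8373 in the other 2-cell libraries. Calls are therefore given with it and, where it decides them, without it. It was singled out in these same data for its likeness to the 8-cell libraries, so leaving it out favours a gap between the groups. Counts and calls without it show how far results depend on it and are no independent support. Its label was kept.

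Annotations that derive from tRNAs took a larger mean share of the reads at the 8-cell stage, and piRNAs a smaller one, but neither difference passed its test. tRNA-derived reads were 13.6%, 26.6% and 15.9% of normalised reads in the 8-cell libraries and 4.22%, 7.74%, 12.9% and 3.67% in the 2-cell libraries. Every 8-cell library was above every 2-cell library, the nearest pair being 13.6% and 12.9%. The means were 18.7% ± 6.95 (SD, n = 3) at the 8-cell stage and 7.15% ± 4.27 (SD, n = 4) at the 2-cell stage, a difference of 11.6 percentage points (exact permutation test, two-sided, p = 0.0571; Benjamini-Hochberg over 10 classes, 0.571).

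The piRNA share was 79.3%, 66.7% and 73.6% in the 8-cell libraries and 91.3%, 87.6%, 73.0% and 88.0% in the 2-cell libraries. The groups overlapped through 2-cell replicate 3. The difference of means was -11.7 points (exact permutation p = 0.114, adjusted p = 0.571), and without that library it was -15.7 points (exact permutation p = 0.1, the smallest that 3 against 3 libraries allow). miRNAs held 3.05%, 2.3% and 4.57% of the reads in the 8-cell libraries and 1.57%, 1.75%, 8.88% and 3.38% in the 2-cell libraries, and the groups overlapped. Their difference was -0.59 points (exact permutation p = 0.943) and turned to 1.07 points without 2-cell replicate 3. Shares sum to a whole, so a rise in one class and a fall in another cannot be told apart here.

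**Figure D1:**
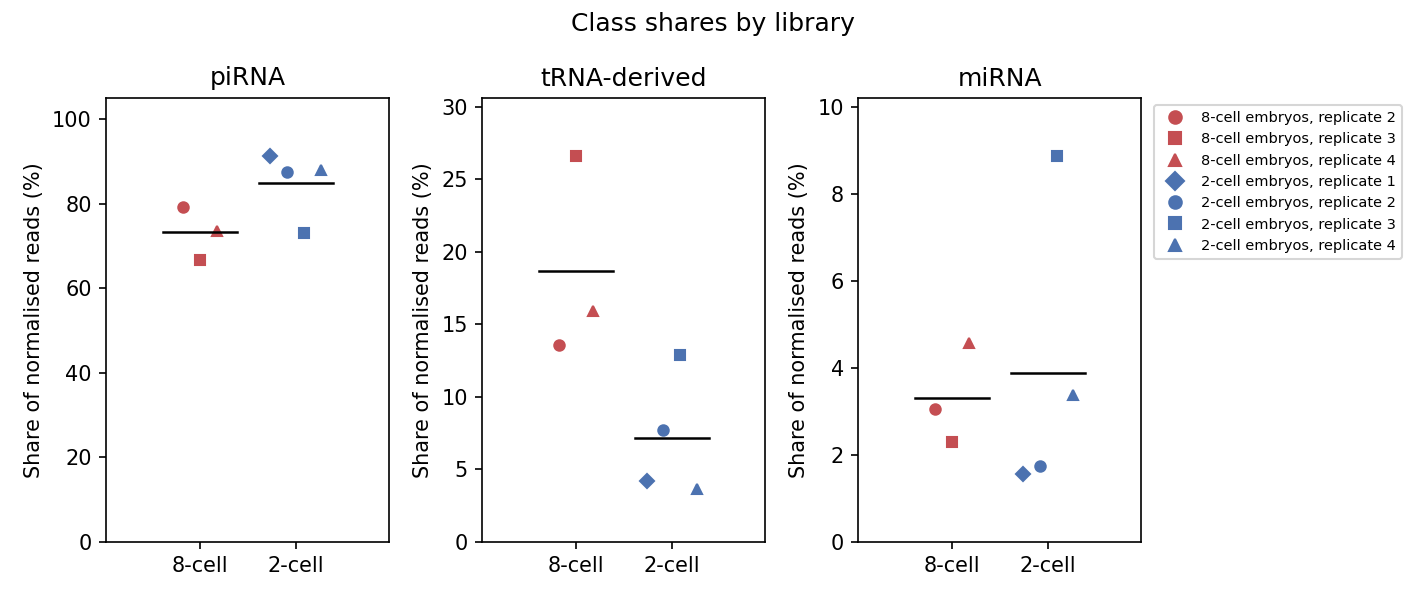
Share of normalised reads (%, vertical axes, each starting at 0) held by piRNAs, tRNA-derived RNAs and miRNAs in each 8-cell library (red, left) and 2-cell library (blue, right). Marker shapes give the replicate number and lines the group means. The tRNA-derived shares of the 8-cell libraries (13.6% to 26.6%) lie above those of the 2-cell libraries (3.67% to 12.9%), and 2-cell replicate 3 lies apart from its group in the piRNA and miRNA panels.

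Within the tRNA-derived reads, the mean share of 5′ tiRNAs (the table's 5p-tR-half) was larger at the 8-cell stage, and that of pieces with the CCA tail or from precursor ends was smaller, though none of these differences passed the adjusted threshold. The 5′ tiRNAs were 63.5%, 67.5% and 60.0% of tRNA-derived reads in the 8-cell libraries and 28.1%, 37.5%, 59.8% and 16.6% in the 2-cell libraries. All 8-cell libraries were above all 2-cell libraries, with 2-cell replicate 3 only just below. The means were 63.7% ± 3.75 (SD, n = 3) and 35.5% ± 18.3 (SD, n = 4), a difference of 28.2 points (exact permutation p = 0.0571, adjusted p = 0.114 over 8 fragment types).

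The CCA pieces were 1.2%, 0.6% and 2.23% of tRNA-derived reads in the 8-cell libraries and 5.97%, 9.03%, 3.3% and 11.2% in the 2-cell libraries, with no overlap. The difference was -6.04 points (exact permutation p = 0.0571, adjusted p = 0.114). tRF-1, the piece trimmed from the 3′ end of the precursor, was 7.91%, 3.54% and 6.13% in the 8-cell libraries and 26.6%, 14.4%, 8.26% and 32% in the 2-cell libraries, again with no overlap. Its difference was -14.4 points (exact permutation p = 0.0571, adjusted p = 0.114). Leader pieces from the 5′ end of the precursor averaged 0.532% at the 8-cell stage and 2.15% at the 2-cell stage, without overlap. In each of these 4 types 2-cell replicate 3 was the 2-cell library nearest to the 8-cell values. No fragment type passed the adjusted threshold; the smallest p that 3 against 4 libraries can give is 0.0286.

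**Figure D2:**
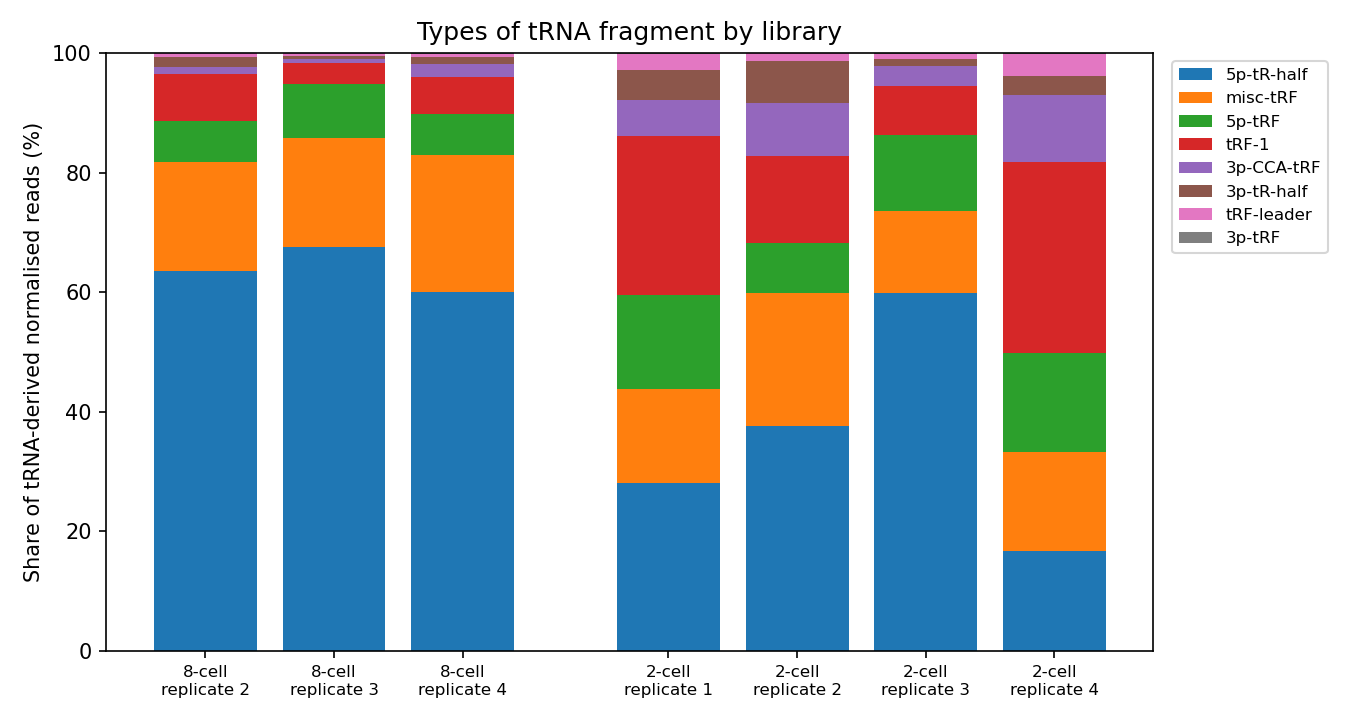
Share of tRNA-derived normalised reads (%, vertical axis) held by each of 8 fragment types, as stacked bars, 1 per library, with the 8-cell libraries on the left and the 2-cell libraries on the right. The 5′ tiRNAs fill 60.0% to 67.5% of the 8-cell bars and 16.6% to 59.8% of the 2-cell bars.

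Within single tRNAs the ratio of 5′ tiRNA to CCA piece had the higher mean at the 8-cell stage. Of 19 isoacceptors (tRNAs named by amino acid and anticodon) with both kinds, 11 had at least 50 reads of each over the 7 libraries, a minimum chosen after the data were seen. In all 11 the mean log2 ratio of 5′ tiRNA to CCA reads (1 added to each) was higher at the 8-cell stage, with a median difference of 3.43 and a range of 0.82 to 4.6. In 7 of them every 8-cell library was above every 2-cell library, and in 10 without 2-cell replicate 3. These tRNAs share the libraries and are not replicates.

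For the valine tRNA with the AAC anticodon the log2 ratio was 7.75, 8.94 and 6.62 in the 8-cell libraries and 1.96, 4.21, 6.1 and 0.42 in the 2-cell libraries. For the glycine tRNA with the GCC anticodon, whose 5′ tiRNA is among the most abundant tRNA fragments in many mammalian samples, it was 9.83, 10.47 and 8.73 in the 8-cell libraries and 5.39, 7.44, 7.61 and 4.45 in the 2-cell libraries. Neither set of values overlapped. The aspartate tRNA (GTC) was the exception in level, with more CCA piece than 5′ tiRNA in all 7 libraries, at -2.04, -2.36 and -4.15 in the 8-cell libraries and -2.97, -3.2, -4.18 and -4.32 in the 2-cell libraries.

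**Figure D3:**
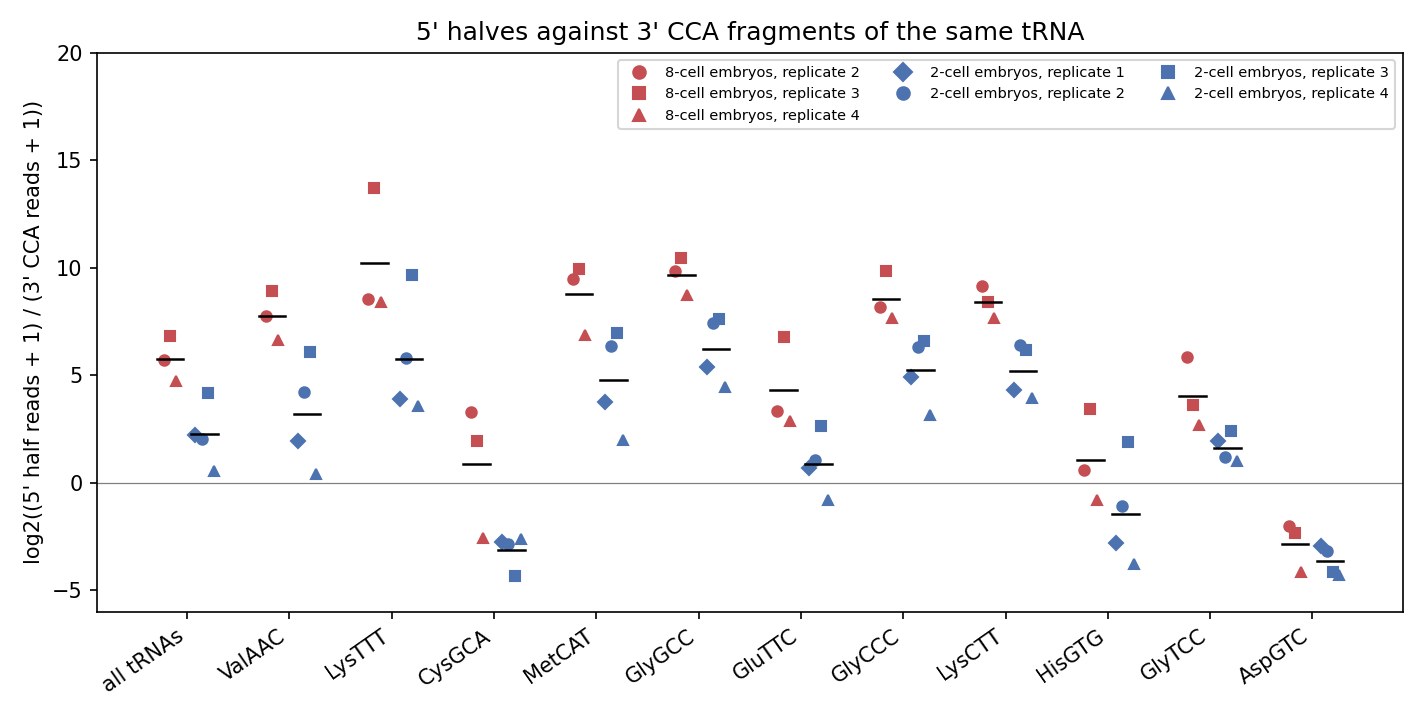
log2 ratio of 5′ tiRNA reads to CCA reads (1 added to each, vertical axis) for all tRNAs together and for 11 isoacceptors, in 8-cell libraries (red, left of each pair) and 2-cell libraries (blue, right). Lines are group means. The 8-cell mean is the higher one in every pair, by 0.82 for AspGTC to 4.6 for ValAAC.

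Testing each annotation on its own, 10 of 7152 differed (limma, Benjamini-Hochberg adjusted p under 0.05): 9 were higher at the 8-cell stage, which is 0.126% of those tested, and 1 was lower, which is 0.014% (0.14% in either direction). The 9 were 7 annotations of 5′ tRNA tiRNAs, 1 of another tRNA fragment and miR-449a. An unadjusted p under 0.05 was seen for 439. Every 8-cell library was above every 2-cell library in 2.22% of the annotations tested and below in 3.31%. The median change of all annotations tested was -0.39 on the log2 scale. After subtracting it, the 9 higher annotations had changes of 3.51 to 5.13 and the lower one -3.29. Of the 51 tested annotations of 5′ tiRNAs, 7 were called higher and none lower, 40 had a change above 0 and their median change was 1.67.

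The 5′ tiRNA of the valine tRNA with the CAC anticodon had 270.5, 378.6 and 153.7 normalised reads in the 8-cell libraries and 15.7, 0, 57.0 and 0 in the 2-cell libraries. All 8-cell libraries were above all 2-cell libraries. The log2 change was 4.74 ± 0.79 (SE; limma adjusted p = 2.71e-05). It was at 3.52 normalised reads on average in oocytes and at 34.8 in cloned 8-cell embryos.

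The 5′ tiRNA of a methionine tRNA (CAT), the tRNA that starts or extends proteins, had 2937, 3586 and 619 normalised reads in the 8-cell libraries and 115, 246, 291 and 24.4 in the 2-cell libraries. It was the most abundant of the 10 at the 8-cell stage, and its groups did not overlap. The change was 3.88 ± 0.67 (SE; limma adjusted p = 3.2e-05).

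The 5′ tiRNA of a glutamate tRNA (TTC) had 94.7, 610.1 and 535 normalised reads in the 8-cell libraries and 10.4, 34, 95.1 and 0 in the 2-cell libraries. The lowest 8-cell library and 2-cell replicate 3 were level. The change was 4.02 ± 0.73 (SE; limma adjusted p = 0.000154).

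The 5′ tiRNA of an alanine tRNA (AGC) had 299.8, 979 and 333 normalised reads in the 8-cell libraries and 41.8, 30.2, 108 and 34.2 in the 2-cell libraries, with no overlap. The change was 3.17 ± 0.67 (SE; limma adjusted p = 0.00396). The 5′ tiRNA of a valine tRNA (AAC) was also without overlap, at 259, 515 and 138 in the 8-cell libraries and 47.0, 56.7, 108 and 0 in the 2-cell libraries. Its change was 3.12 ± 0.72 (SE; limma adjusted p = 0.012). Without 2-cell replicate 3 the call was lost (limma adjusted p = 0.0602), and it was kept in 8 of 21 alternatives.

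Both called annotations of the lysine tRNA with the TTT anticodon overlapped between the stages through 2-cell replicate 3. The annotation naming 1 tRNA gene had 495.9, 699.1 and 109.9 normalised reads in the 8-cell libraries and 10.4, 79.4, 291 and 0 in the 2-cell libraries. The annotation naming 3 genes had 249.3 to 718.1 in the 8-cell libraries and 10.4 to 364.2 in the 2-cell libraries. Their changes were 3.45 and 3.12 (limma adjusted p = 0.00354 and 0.00542). Without 2-cell replicate 3 the first was no longer called (limma adjusted p = 0.0503) and the second was (0.0267).

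The called fragment of a cysteine tRNA (GCA) was of the miscellaneous type (misc-tRF). It had 282, 237 and 9.51 normalised reads in the 8-cell libraries and 41.8, 0, 0 and 0 in the 2-cell libraries. The 8-cell replicate 4 was below 2-cell replicate 1, so the groups overlapped. The change was 4.23 ± 0.93 (SE; limma adjusted p = 0.0059). The call was lost without 2-cell replicate 3 (limma adjusted p = 0.0966) and with reads thinned to equal depth, an alternative added after seeing the data (change 3.29, limma adjusted p = 0.297).

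miR-449a belongs to a family that shares its seed with miR-34 and is known in mice for roles in multiciliated cells and in the testis. It had 229.9, 179.2 and 19 normalised reads in the 8-cell libraries and 0, 0, 17.6 and 0 in the 2-cell libraries. The gap rests on 8-cell replicates 2 and 3, because 8-cell replicate 4 was close to 2-cell replicate 3 and to the limits that a 0 allows at the 2-cell stage. The change was 4.51 ± 0.95 (SE; limma adjusted p = 0.00376).

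The annotation that was lower names 2 piRNA clusters, chr24:17975001-17981726 and chr29:24829963-24837194, in the coordinates of the deposited table. The submitters' processing notes name bosTau8 and UMD3.1. The annotation had 0, 0 and 82.4 normalised reads in the 8-cell libraries and 240.1, 283, 29.3 and 48.8 in the 2-cell libraries. The groups overlapped, since 8-cell replicate 4 was above 2-cell replicates 3 and 4. The change was -3.68 ± 0.81 (SE; limma adjusted p = 0.0059), and the call was lost without 2-cell replicate 3 (limma adjusted p = 0.0664).

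**Figure D4:**
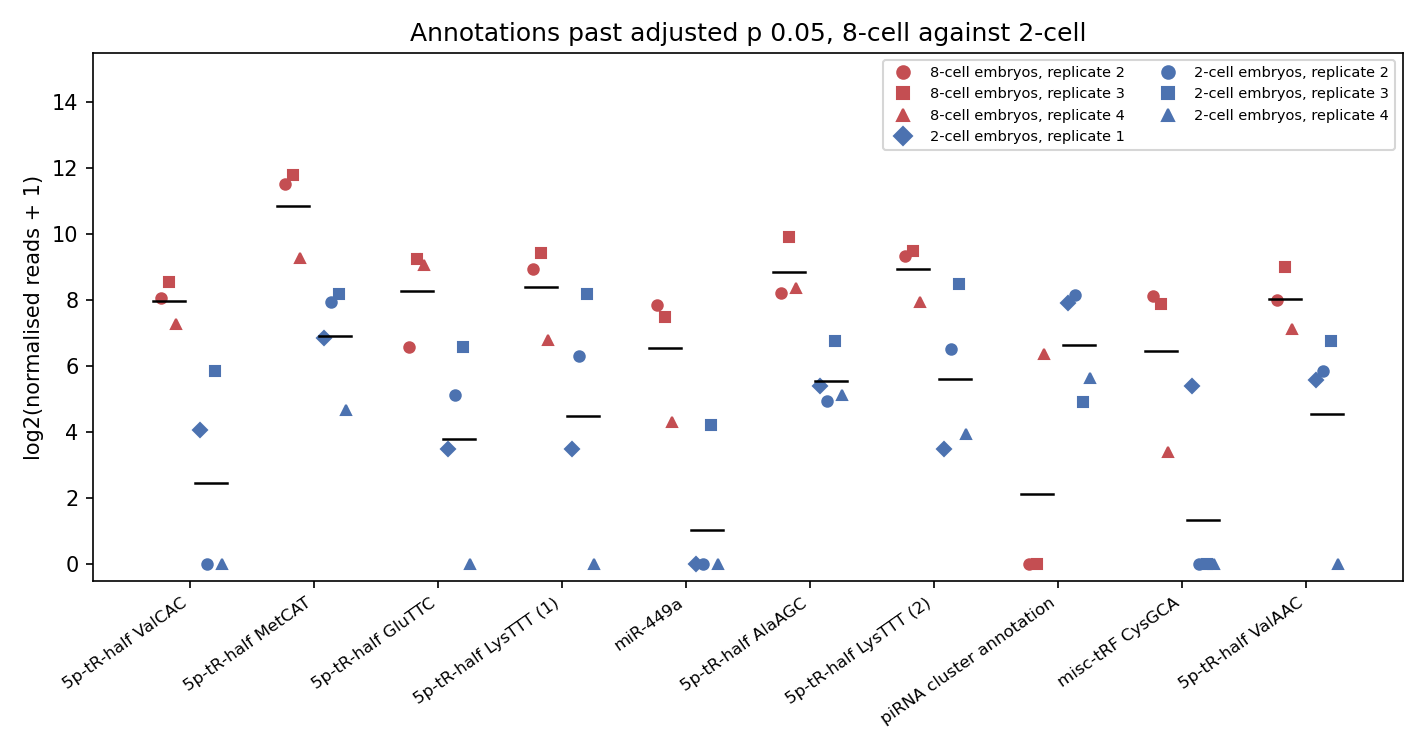
log2(normalised reads + 1) (vertical axis) of the 10 annotations past an adjusted p of 0.05, in 8-cell libraries (red, left of each pair) and 2-cell libraries (blue, right), with lines at the group means. Only the piRNA cluster annotation has the lower mean at the 8-cell stage, and several pairs overlap through 2-cell replicate 3.

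These calls depended on the method and on single libraries. The number called higher and lower was 0 and 0 without an intensity trend, with quantile normalisation and without 8-cell replicate 3, and 16 (0.236% of those tested) and 97 (1.43%) without 2-cell replicate 3, where 6 of the 10 were called again. Each of the 10 kept its direction in all 21 alternatives, and the 5′ tiRNA ValCAC was called in 16 of them.

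Reads were also summed over all annotations of a miRNA name, of a fragment kind and isoacceptor, or of a piRNA cluster. Of 601 such sums, 1 was higher at the 8-cell stage (0.166%) and 0 were lower by limma. Before adjustment 58 had a p under 0.05. The median change of all 601 sums was -0.63, and 137 of them had a change above 0. The 1 called was again the 5′ tiRNA ValCAC, with a change of 5.5 ± 1.07 (SE; limma adjusted p = 0.0104). miR-449a, with a change of 5.5 ± 1.28 (SE), did not pass (limma adjusted p = 0.0516). It did without 2-cell replicate 3, with a change of 6.56 (limma adjusted p = 0.0122).

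Among these sums, 19 of 21 of the 5′ tiRNAs had a change above 0, with a median of 1.99, and 0 of 25 of the CCA pieces did, with a median of -1.37. In 7 of the 5′ tiRNAs every 8-cell library was above every 2-cell library, and in 11 of the CCA pieces every one was below. Over all 601 sums these were 15 (2.5%) above and 30 (4.99%) below. The 5′ tiRNA of ValAAC had 17468, 46511 and 15297 normalised reads in the 8-cell libraries and 2631, 4750.1, 9819.8 and 864 in the 2-cell libraries. The CCA piece of ArgCCT had 9.02, 19 and 35.4 in the 8-cell libraries and 73.1, 64.2, 55.6 and 107 in the 2-cell libraries. Without 2-cell replicate 3, 24 sums were called higher (4.07%) and 187 lower (31.7%). Among them were 15 of the 5′ tiRNAs higher, 12 of the CCA pieces lower and 157 of 351 piRNA clusters lower. The median change in that fit was -1.06 over all sums and -1.24 for piRNA clusters. The clusters were 351 of the 590 sums tested and so largely set the median of all. The median change was 2.33 for 5′ tiRNAs, -1.72 for CCA pieces and -0.26 for miRNA names.

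The 5′ tiRNA sums of 2 glycine tRNAs and of ValAAC had the highest means at the 8-cell stage. GlyCCC had 24544, 80144 and 23352 normalised reads in the 8-cell libraries and 8033, 21509.7, 13076 and 2942 in the 2-cell libraries. GlyGCC had 22628, 30239 and 18364 normalised reads in the 8-cell libraries and 5909, 11836, 8882 and 2659 in the 2-cell libraries. Both were higher in every 8-cell library than in any 2-cell library, with log2 changes of 1.99 ± 0.75 and 1.87 ± 0.69 (SE; limma adjusted p = 0.356 for each), which did not pass. Both passed without 2-cell replicate 3 (limma adjusted p = 0.0288 for GlyCCC and 0.0253 for GlyGCC). The GluTTC sum had 2545, 28621 and 3384 normalised reads in the 8-cell libraries and 1279, 1281, 3398 and 907.5 in the 2-cell libraries, and here 2-cell replicate 3 reached the 8-cell values. Of the 21 sums, AspGTC (-0.5) and the one assigned to Ensembl tRNAs (-0.71) had changes below 0.

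The most abundant CCA pieces of a named isoacceptor had lower values at the 8-cell stage. The AspGTC piece had 358.4, 686 and 720.5 normalised reads in the 8-cell libraries and 1796, 1383, 795.8 and 2142 in the 2-cell libraries. The GluTTC piece had 252.5, 261.1 and 470.1 normalised reads in the 8-cell libraries and 793.4, 623.5, 539.8 and 1619.9 in the 2-cell libraries. Every 8-cell library was below every 2-cell library for both, with changes of -1.35 and -1.37, neither called (limma adjusted p = 0.498 for each). Both were called without 2-cell replicate 3 (limma adjusted p = 0.0253 for AspGTC and 0.0288 for GluTTC).

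**Figure D5:**
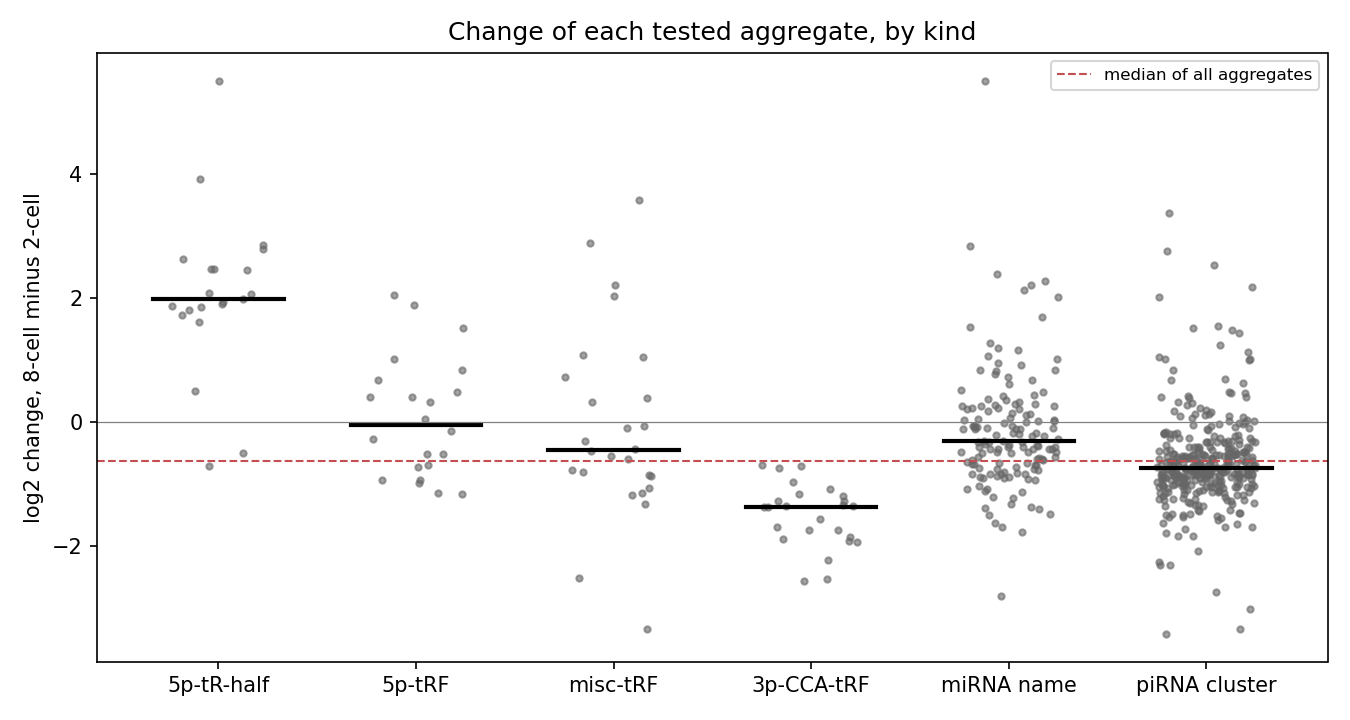
log2 change (8-cell minus 2-cell, vertical axis) of each tested sum, by kind. Each point is 1 sum, black lines are medians and the dashed line is the median of all 601 sums. The medians are 1.99 for 5′ tiRNAs, -1.37 for CCA pieces, -0.31 for miRNA names and -0.74 for piRNA clusters.

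The make-up of the piRNA reads by cluster was close to equal in the 7 libraries. The 5 largest clusters held 75.2% to 76.9% of piRNA reads in the 7 libraries. The largest, chr6:110178897-110333441, held 33.6%, 32.2% and 33.5% in the 8-cell libraries and 32.4%, 32.5%, 31.1% and 32.3% in the 2-cell libraries. The cluster chr17:62734087-62862016 held 17.7% ± 0.0892 (SD, n = 3) at the 8-cell stage and 18.3% ± 0.567 (SD, n = 4) at the 2-cell stage. Reads with a mismatch to the annotation were 21.5% to 23% of piRNA reads in all 7 libraries.

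Of 143 miRNA names tested, none passed the adjusted threshold by limma, 4 had an unadjusted p under 0.05 and the median change was -0.31. Without 2-cell replicate 3, 2 of 135 were called higher (miR-449a and miR-6119) and 7 lower (miR-122, miR-105a, miR-451, miR-338, miR-363, miR-194 and miR-30b; limma adjusted p = 0.0253 to 0.0493). Over all sums in that fit 4.07% were called higher and 31.7% lower. The median change there was -0.26 for miRNA names and -1.06 for all sums. The most abundant miRNA name, miR-21, had 3893, 3689 and 8579.8 normalised reads in the 8-cell libraries and 1086, 2131, 17792 and 8373 in the 2-cell libraries. The 2-cell libraries spanned the 8-cell ones. Of the let-7 family, which holds back pluripotency genes in mammals, 8 of 8 tested members had a change below 0, with a median of -0.76. The median was -0.31 over the 143 miRNA names, of which 51 were above 0. It was -0.63 over all 601 sums, of which 352 were piRNA clusters. Most of these sums were below 0 too. let-7a had 180.3, 230.3 and 481 in the 8-cell libraries and 365, 215, 924 and 771 in the 2-cell libraries, with overlap.

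In the miR-15/16 family, known for restraining the cell cycle, 9 of 9 tested were below 0, with a median of -0.66. This was close to the -0.63 of all sums and below the -0.31 of miRNA names. In the miR-17-92 cluster and its paralogs, which promote proliferation, 4 of 11 were above 0 (median -0.12), and miR-19b had a change of -0.21. In the miR-30 family miR-30b was lower in every 8-cell library, at 766, 596 and 404 normalised reads in the 8-cell libraries and 1383, 956, 768 and 1298 in the 2-cell libraries, a change of -0.91, or -0.28 after subtracting the median of all sums. miR-26a was likewise without overlap at a change of -0.83, or -0.2 after subtraction. The median subtracted was -0.63, which is lower than the -0.31 of miRNA names. miR-205 and miR-138, known as oocyte-enriched in cattle, had changes of -0.11 and -0.5. In the other families the medians ranged from -0.89 for miR-181 to 0.76 for miR-221 and miR-222, and none held a called sum. Among them was the miR-34 and miR-449 family (median 0.17), whose miR-449a was called as a single annotation. Of the miR-371 and miR-302 list 1 of 8 names was in the table, a joint name of miR-302a and miR-302d, and it was at 0 in all 7 libraries.

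The summed levels of markers of other cells overlapped between the stages, for 3 of the lists only through 2-cell replicate 3. The cumulus and granulosa list, 9 of 10 names found, summed to 4487 to 9325 normalised reads in the 8-cell libraries and 2364 to 18554 in the 2-cell libraries, with miR-21 the largest member. The blood and serum list, 6 of 7 found, summed to 203 to 315 at the 8-cell stage and 178 to 1405 at the 2-cell stage, with miR-142 at 0 in all 7 libraries. Without 2-cell replicate 3 the lowest 2-cell sum was 604.6, above every 8-cell library. In that setting 2 members, miR-122 and miR-451, were called lower (limma adjusted p = 0.0253 and 0.0313). Of all sums in that fit 31.7% were called lower, and the median change was -1.06. The lists hold miRNA names, for which the shift was smaller. Of 135 miRNA names in that fit 7 were called lower, and their median change was -0.26. Fibroblast markers, 10 of 11 found, summed to 383 to 413 at the 8-cell stage and 299.9 to 1033 at the 2-cell stage. There 2-cell replicate 3 was the lowest and the next was 513.9. The largest member in all 7 libraries was miR-10b, which averaged 675.8 normalised reads in oocytes. Muscle and neural markers, 5 of 10 found, summed to 163.7 to 250.2 at the 8-cell stage and 96.5 to 605 at the 2-cell stage. Again 2-cell replicate 3 was the lowest, and the next was 297.5. The largest member was miR-9, which averaged 251.8 in oocytes. Epithelial and trophectoderm markers, 4 of 9 found, summed to 50.7 to 110.4 at the 8-cell stage and 81.9 to 208.8 at the 2-cell stage. The sperm list, 3 of 7 found, includes miR-449a. The part of other cells in the results was not tested.

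Whether the step differed from that of cloned embryos was tested on 11246 annotations in 15 libraries. By limma 0 passed the adjusted threshold (265 before adjustment). For the 5′ tiRNA ValCAC the IVF step exceeded the scNT step by 3.93 ± 1.05 (SE; limma adjusted p = 0.49). Cloned embryos averaged 34.8 normalised reads of it at the 8-cell stage and 18.5 at the 2-cell stage (n = 4 each). For miR-449a the difference of steps was 2.86 ± 1.21 (SE; limma adjusted p = 0.999), with cloned means of 32.6 at the 8-cell stage and 5.12 at the 2-cell stage. In IVF blastocysts the 5′ tiRNA ValCAC averaged 102 and miR-449a 52.0 normalised reads (n = 3).

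Set along IVF development, with no test, the called 5′ tiRNA annotations had their highest stage mean at 8 cells, except GluTTC. They were called for high values in these same 8-cell libraries, so the choice itself favours a peak there. GluTTC averaged 413.1 normalised reads in 8-cell embryos and 473.1 in blastocysts. The LysTTT annotation naming 1 gene was nearly level, at 435 in 8-cell embryos and 424.8 in blastocysts. The MetCAT annotation averaged 147.2 normalised reads in oocytes, 169 in 2-cell embryos, 2381 in 8-cell embryos, 699 in morulae and 984.1 in blastocysts, all IVF after the oocyte. miR-449a averaged 10.1, 4.39, 142.7, 83 and 52 over the same stages, with single morula libraries at 0 to 254.9. The morula means join uneven libraries, in which 1069, 3964, 423 and 6414 annotations were found. In the same order MetCAT had 109.5, 1103, 266.7 and 1317 normalised reads. Its morula mean therefore says little about a fall after 8 cells.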

How the data were processed

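Small RNA of bovine embryo pools was sequenced by the authors. Per the submitters' processing notes, reads were trimmed with Trim Galore, bosTau8 and UMD3.1 were used, and values were made with DESeq2; no versions are stated in these sources. The deposited log2 values are variance-stabilised and size-factor normalised. Inverting the transformation gave whole reads for 100% of 188126 values above the lowest (tolerance 0.01 reads), taking the smallest as 2 reads. Annotations were tested if 3 or more libraries lay 1 log2 unit over the table's lowest value, and a sum at 10 normalised reads in at least 3, as log2(sum + 1). Tests used limma 3.58.1 in R 4.3.3 with an intensity trend (561 prior and 5 residual degrees of freedom), without covariates, and exact permutation tests in scipy 1.17.1. The script was tested on simulated data. Nothing in the labels says whether pools came from separate collections, so no p-value covers more than these pools. For annotations, the limma standard errors and p-values rest mostly on a variance trend over annotations of like level. Each annotation's own spread between pools weighs little, with 5 residual against 561 prior degrees of freedom. Named were all called annotations and sums, the highest annotations of each class, and leading members of lists and of a fixed set of miRNAs; not every such name is printed. List members are given as values, without p-values except for miR-449a and for members called without 2-cell replicate 3. The members and lists were chosen with earlier results of these data known. The table pairs no annotation with a sequence, and none is shown.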

Additional observations from a re-analysis of the deposited data

Results flagged for a closer look

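In 5 of the 37 values examined with Dixon's criterion among the 4 2-cell libraries, 1 library lay far from the others. Chance flags about 1 in 20 independent normal values. That rate is no measure here, because the values share libraries and a value with all other libraries at 0 is always flagged. In 2-cell replicate 3 the values flagged were the misc_RNA share (0.748%), the snoRNA share (0.108%), miR-449a (17.6 normalised reads, the others at 0) and the 5′ tiRNA AlaAGC (108 normalised reads). In 2-cell replicate 1 it was the cysteine tRNA fragment (41.8 normalised reads, the others at 0). The 3 8-cell libraries are too few to examine in this way.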

How the results depend on the processing

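The number of annotations called moved with the method. Higher and lower calls were 4 and 0 with libraries centred on their medians, 0 and 0 with quantile normalisation (578 at an unadjusted p under 0.05), 1 and 0 on counts scaled to CPM, 0 and 0 without an intensity trend (406 unadjusted), 49 and 94 with library weights, 17 and 5 adjusted within classes, and 4 and 0 with the replicate number as a block. Lower calls were 4 under a stricter filter, 2 on log2(normalised reads + 1) and 8 in 1 model over all 12 groups. Thinning reads to equal depth, added after seeing the data, gave 8 and 1 (9 of the 10 again called). Leaving out 1 library gave 0 to 16 higher and 0 to 97 lower calls, the upper ends without 2-cell replicate 3. Of sums, the number higher was 0 with a pseudocount of 0.5, without a filter, with centring, as CPM or without the trend, 6 with a pseudocount of 10, 5 under a stricter filter, 29 with weights (64 lower), 2 with mismatched miRNAs and 2 with the replicate block; leaving out 1 library gave 0 to 24 higher and 0 to 187 lower.

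For the IVF step minus the scNT step, the number higher was 2 as CPM, 1 with voom, 1 without the trend, 4 with weights and 7 in 1 model over all groups; leaving out 1 library gave 0 to 5 higher and 0 to 1 lower. That difference turned for a LysTTT 5′ tiRNA to -0.04 with weights, -0.1 without 8-cell replicate 3 and -0.79 without 2-cell replicate 4.

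Among sums, AspGTC turned to 0.05 as CPM and GlyTCC to -0.12 without 8-cell replicate 3 (5′ tiRNAs). The miRNA share turned to 0.0459 on the logit scale. Without the 10 highest annotations 5p-tRF turned to 0.472 and misc-tRF to -0.026 points. Leaving out 1 library moved GlyTCC between -0.12 and 0.97, the LysTTT difference of steps between -0.79 and 1.5, and the shares of low complexity between -0.00613 and 0.0253, miRNAs of other species between -0.198 and 0.276, protein_coding between -0.0533 and 0.151, snRNA between -0.157 and 0.136, and snoRNA between -0.0196 and 0.00998 points. Small classes also turned: miRNAs of other species (0.0499 on the logit scale, 0.0636 without 8-cell replicate 3, 0.276 without 2-cell replicate 4), snRNA (-0.0627 with the replicate block and without 2-cell replicate 1, -0.0551 without 2-cell replicate 2, -0.157 without 8-cell replicate 4), low complexity (-0.00613), protein_coding (-0.0533, both without 8-cell replicate 4) and snoRNA (0.00998 without 2-cell replicate 3). On log2 class sums, an alternative added after seeing the data, low complexity was -0.27, protein_coding -0.44, rRNA -0.14 and snRNA -0.44. Leaving out 1 library moved the shares over these ranges: piRNA -15.7 to -8.5, tRNA-derived 7.61 to 14.1, miRNA -1.36 to 1.07, 5′ tiRNAs 21.8 to 36.3, CCA pieces -7.4 to -4.76 and tRF-1 -18.5 to -10.6 points. The cause of these changes was not tested. Same-numbered libraries deviated together with correlations of 0.02, -0.04 and 0.09, so no pairing by number was seen. So few pairs cannot show whether libraries shared a collection. Depth limits low annotations, more so at the 2-cell stage.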
